A study of Mus musculus with 8 samples.

Results

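The regions described here are 2 segments of mouse chromosome 15 that stood apart from the rest of that chromosome in maps of replication initiation sites (ISs) from cells with and without RIF1. The proximal segment ran from 39.48 to 54.79 Mb and the distal segment from 98.5 Mb to the chromosome end at 103.49 Mb (genome build mm9). The ISs of both segments were taken by position from the 2 merged tables of the series, and the segments themselves had been chosen by their measured fold changes in the first table. For Rif1KO against WT, the proximal segment held 574 ISs and the distal segment 226, together 800 of the 2667 ISs on chromosome 15 and of 39116 in all. For Rif1KO_shMcm6 against Rif1KO_shLacZ they held 1292 and 488 ISs, together 1780 of 7138 on the chromosome and of 129937 in all. The remaining 1867 and 5358 ISs of chromosome 15 served as the reference.

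Short nascent strand sequencing (SNS-seq) was done in the mouse B lymphoma cell line CH12, grown in complete RPMI medium with IL4, CD40 and TGF beta as stimuli. The 8 libraries made 4 groups of 2: unedited cells (WT), Rif1-null cells (Rif1KO), Rif1-null cells with a control hairpin against LacZ (Rif1KO_shLacZ) and Rif1-null cells with a hairpin against Mcm6 (Rif1KO_shMcm6). Replicates came from separately thawed vials, the hairpins were delivered by lentivirus, and how many Rif1KO clones were used for SNS-seq was not given in the sources used here. Each condition has a single pooled value in the tables, which measure no RNA or protein, so there was no replicate error, no test between conditions was possible, and the loss of RIF1 or MCM6 could not be checked in them. All 3 Rif1-null groups were set against the same WT libraries, so a low value in WT would raise all of them together.

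DNA replication starts where the MCM helicase, loaded onto DNA as part of the pre-replicative complex, is activated and a pair of forks moves apart. SNS-seq enriches the short leading strands made at these places by size selection and by lambda exonuclease, which spares strands that begin with an RNA primer, so the reads at an IS follow how often replication began there in the population. RIF1 is a chromosomal protein known as a regulator of replication timing, and MCM6 is a subunit of the MCM helicase. The peaks had been called without an input library, so the density of an IS also follows the number of template copies in the cells, which no value of these tables measures.

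The sequences under a few of these ISs are printed as examples of the DNA in the segments; they were picked as extremes and do not compare the segments. Each is the 200 bases nearest to the centre of an IS of the first table that hold no annotated untranslated region, read from NCBIM37 (mm9), plus strand, 5′ to 3′. Capitals mark a G-quadruplex motif, here 4 runs of at least 3 G separated by 1 to 7 bases on either strand (runs of C on the strand printed). In the proximal segment, the first is from the IS with the highest fold change among the denser ISs (chr15:49121172-49121371, intergenic, 497185 bp from the nearest gene start, that of Csmd3), the second from the densest promoter IS (chr15:40486388-40486587, directly before the start of Zfpm2), and the third from the densest intergenic IS (chr15:52419024-52419223, nearest Gm10020).
Csmd3 intergenic IS: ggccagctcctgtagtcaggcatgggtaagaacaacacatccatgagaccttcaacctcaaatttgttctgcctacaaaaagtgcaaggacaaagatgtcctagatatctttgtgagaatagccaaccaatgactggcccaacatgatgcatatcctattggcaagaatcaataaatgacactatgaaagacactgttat
Zfpm2 promoter IS: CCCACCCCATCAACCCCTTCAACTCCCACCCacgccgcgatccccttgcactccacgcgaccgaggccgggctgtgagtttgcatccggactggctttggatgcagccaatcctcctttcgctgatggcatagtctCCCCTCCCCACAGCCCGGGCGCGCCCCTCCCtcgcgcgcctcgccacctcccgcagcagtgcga
Gm10020 intergenic IS: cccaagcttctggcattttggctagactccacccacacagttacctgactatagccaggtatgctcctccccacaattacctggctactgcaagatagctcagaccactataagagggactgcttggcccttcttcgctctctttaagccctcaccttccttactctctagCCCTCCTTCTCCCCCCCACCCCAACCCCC
For the distal segment, the IS with the highest fold change among the denser ISs and the densest intergenic IS are shown. They lie in an intron of the keratin gene Krt8 (chr15:101832635-101832834) and between genes near the sodium channel gene Scn8a (chr15:100747964-100748163).
Krt8 intronic IS: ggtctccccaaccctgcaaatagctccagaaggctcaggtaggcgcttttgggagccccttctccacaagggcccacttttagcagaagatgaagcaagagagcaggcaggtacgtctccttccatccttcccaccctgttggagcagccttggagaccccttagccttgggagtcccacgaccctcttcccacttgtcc
Scn8a intergenic IS: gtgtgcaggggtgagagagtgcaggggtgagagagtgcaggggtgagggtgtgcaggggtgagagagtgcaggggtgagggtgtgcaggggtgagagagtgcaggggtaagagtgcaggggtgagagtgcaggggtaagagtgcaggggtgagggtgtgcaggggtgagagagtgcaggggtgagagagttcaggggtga
The motif was present in the Zfpm2 and Gm10020 windows and absent from the other 3, of which the Scn8a window is made of near-identical short repeats. GC content ran from 41.5% in the Csmd3 window, which holds 0 CpG dinucleotides, to 68.0% in the Zfpm2 window, which holds 18. The Csmd3 and Krt8 windows, those with the highest fold changes among the denser ISs, held 0 bases of the motif, while the Zfpm2 promoter window held 62.

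Behind these values lay 3350255 WT and 3724571 Rif1KO reads inside the ISs of the first table, and 21071351 Rif1KO_shLacZ and 23602750 Rif1KO_shMcm6 reads inside those of the second. The median IS had 73, 82, 141 and 160 reads in these conditions. Errors given as ± are counting standard errors from the reads of an IS, and intervals are 95% intervals that cover counting error or the spread of ISs only.

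ISs of both segments had more reads in Rif1KO than in WT cells. Fold change is the log2 density (RPM, reads scaled to a total of 1000000 inside the ISs of the table) in Rif1KO minus that in WT, and an IS is called higher or lower past 1.5-fold. In the proximal segment the median IS went from 67 reads in WT to 102 in Rif1KO, and the median log2 fold change was 0.48 (95% interval of the median 0.45 to 0.50, n = 574 ISs), a 1.40-fold difference. In the distal segment the medians were 80 and 118 reads, and the median log2 fold change was 0.44 (0.39 to 0.47, n = 226), or 1.36-fold. In the rest of chromosome 15 the medians were 81 and 93 reads and the median log2 fold change 0.06 (0.05 to 0.07, n = 1867), and outside the chromosome it was 0.01. These values chose the segments and are a description.

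The difference was spread over nearly all ISs of the proximal segment. There, 571 of 574 ISs were above 0 and 173 (30.1%) were higher by over 1.5-fold, against 2.27% of all 39116 ISs of the table. None of the 574 was lower, against 2.7% of the table. In the distal segment 200 of 226 ISs were above 0, 62 (27.4%) were higher and 2 (0.885%) lower. At ISs called in both conditions the higher shares were 14.4% in the proximal and 15% in the distal segment, and after subtracting the GC trend the proximal share was 16.6%. The rest of the chromosome had 25 higher ISs (1.34%) and 21 lower ones (1.12%). Fold changes in the proximal segment ran from -0.31 to 1.31 with a standard deviation of 0.21, while the counting error of its ISs by itself amounts to 0.23. The distal segment was more mixed, from -0.68 to 1.201, with a standard deviation of 0.34 against a counting error of 0.21.

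**Figure D1:**
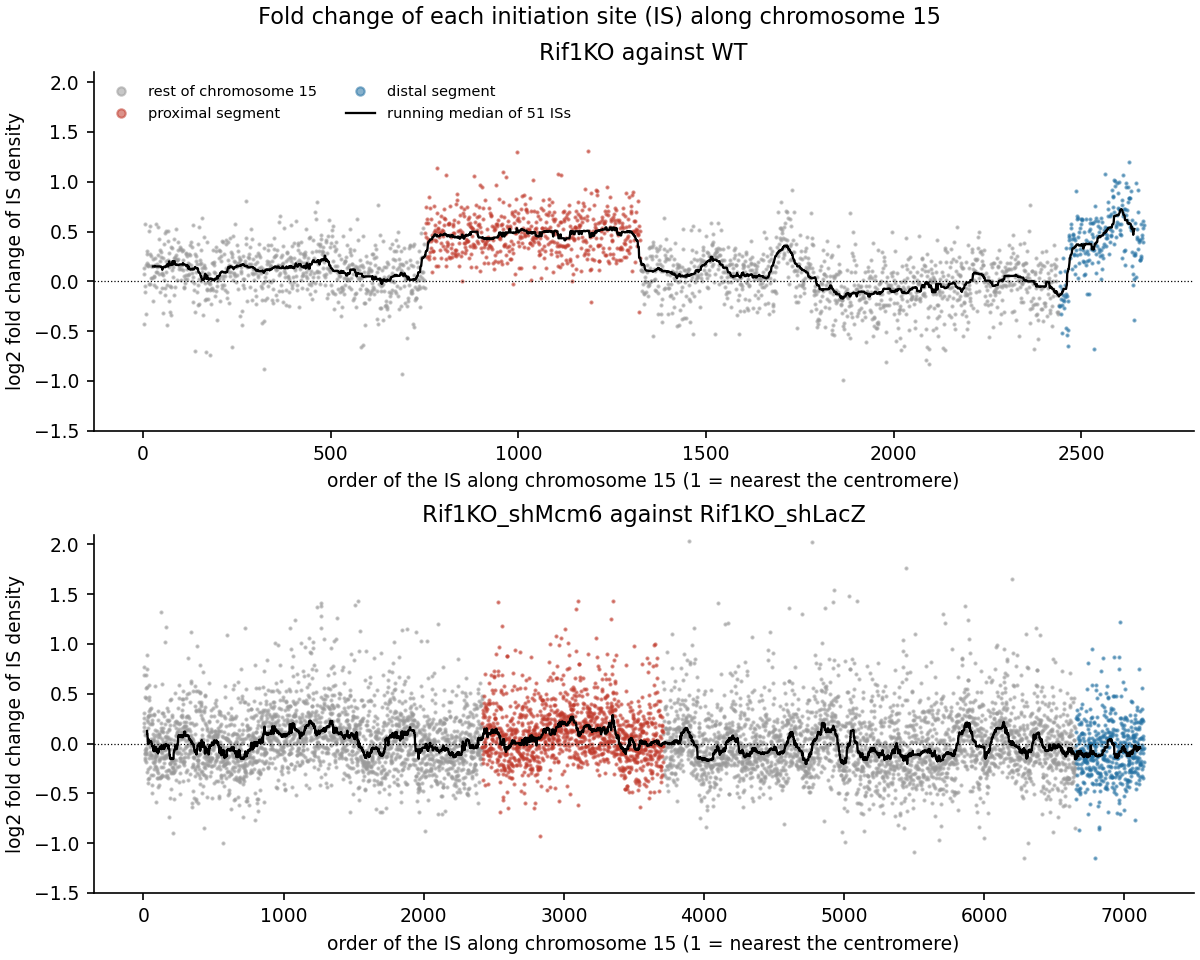
Log2 fold change of each IS (y axis) against its order along chromosome 15 (x axis), for Rif1KO against WT (top) and Rif1KO_shMcm6 against Rif1KO_shLacZ (bottom), with a running median over 51 ISs as a line. In the top panel the medians of the coloured segments are 0.48 and 0.44 against 0.06 in the rest (grey), with the first 25 distal ISs lower at -0.19, and in the bottom panel the medians are 0.08, -0.08 and -0.01.

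Few 2 Mb windows elsewhere reached such medians, which follows in part from the choice of the segments by these same values. In 2 Mb windows with at least 10 ISs, the 7 windows inside the proximal segment had medians from 0.43 to 0.52. The 2 wholly inside the distal segment, both from 100 Mb on, had 0.46 and 0.56. The window from 98 Mb, which crosses the distal edge, had 0.14. The 37 windows in the rest of chromosome 15 ran from -0.12 to 0.36. Of 1078 windows on other chromosomes, from -0.66 to 0.48, 7 (0.649%) were at or above the lowest proximal window.

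The fold change differed across both edges of the proximal segment, which is built in because the segment was chosen by these values. Its first edge lies inside Rims2, a presynaptic active zone gene whose promoter is outside the segment. The 3 ISs of Rims2 just outside had log2 fold changes of 0.38 ± 0.23, 0.26 ± 0.21 and -0.07 ± 0.25, and the 3 ISs just inside 0.48 ± 0.19, 0.74 ± 0.18 and 0.59 ± 0.21. Within 1 Mb the median was 0.07 over 20 ISs outside and 0.43 over 28 ISs inside. At the second edge, beyond Enpp2 (autotaxin, a secreted lysophospholipase), the last 3 ISs inside were at 0.24 ± 0.23, 0.42 ± 0.22 and 0.50 ± 0.13, and the next 3, near the collagen gene Col14a1, at 0.11 ± 0.21, 0.12 ± 0.20 and 0.17 ± 0.22. No IS of this table lay between chr15:54781423 and chr15:55081063. The 1 Mb medians there were 0.50 over 50 ISs inside and 0.04 over 21 ISs outside.

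The nominal edge of the distal segment was not where its values changed. The 3 ISs before it, near the calcium channel gene Cacnb3, were at -0.30 ± 0.18, -0.13 ± 0.17 and -0.24 ± 0.19, and the first 3 inside, near the GTPase genes Rnd1 and Arf3, at -0.25 ± 0.26, 0.09 ± 0.23 and -0.25 ± 0.12. The first 25 ISs, up to chr15:99151194, had a median of -0.19 (-0.25 to -0.13), and 4 of them were above 0. The next IS, in an exon of Nckap5l at chr15:99259596-99259878, was at 0.44 ± 0.28. From it to the chromosome end 196 of 201 ISs were above 0, the median was 0.47 (0.44 to 0.53) and all 62 higher ISs of the segment lay there. This division was made after the values were seen. The part before the step has 26 protein-coding genes, among them the histone methyltransferase gene Mll2, with exonic ISs at -0.33 ± 0.15 and -0.08 ± 0.11, and the hedgehog ligand gene Dhh, with a promoter IS at -0.52 ± 0.26 (71 reads in WT and 55 in Rif1KO). Its lowest IS, in an exon of the formin gene Fmnl3 that holds untranslated sequence, had 103 reads in WT and 73 in Rif1KO (log2 fold change -0.65 ± 0.22) and was 1 of the 2 lower ISs of the segment.

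**Figure D2:**
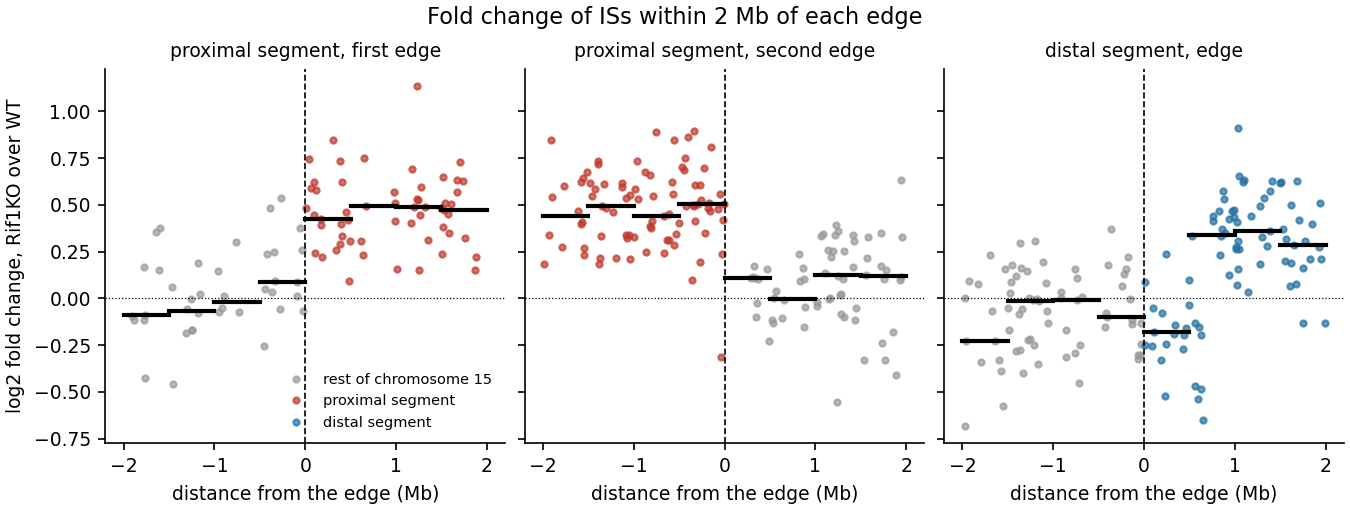
Log2 fold change of Rif1KO over WT (y axis) for the ISs within 2 Mb of each edge, against the distance from the edge in Mb (x axis); points are ISs and bars are medians in 0.5 Mb bins. The proximal segment (red), chosen by these values, lies above its flanks at both edges. The distal segment (blue) starts below 0 and rises only past its first 25 ISs.

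The proximal segment is long and holds few genes, 39 protein-coding genes in 15.31 Mb, or 2.55 per Mb against 7.57 in the rest of the chromosome. Of its ISs 72.6% were intergenic, 24.6% intronic and 1.22% at a promoter (within 1 kb of a transcription start). Cut into 3 parts of equal length, it had medians of 0.45, 0.49 and 0.50. Csmd3, a very long gene for a membrane protein with CUB and sushi domains, held 51 ISs in its body, all above 0, with 15 higher and a median of 0.49. Among the other listed genes wholly inside the segment, the largest sets were in Samd12 (18 ISs, median 0.52, 7 higher) and in Zfpm2, which encodes a cofactor of GATA factors (12 ISs, median 0.49, 3 higher).

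The other listed genes wholly inside the segment had lower numbers of ISs, while Rims2, which crosses its edge, had 15 (median 0.09). Angpt1, a ligand of the Tie2 receptor, and Rspo2, a secreted enhancer of Wnt signalling, had 9 ISs each, with medians of 0.50 and 0.40. Oxr1, an oxidation resistance gene, also had 9 ISs, at a median of 0.36, and its highest was at 1.06. The translation factor subunit genes Eif3h and Eif3e had 3 ISs (median 0.51) and 1 IS (0.40). Ext1, a gene of heparan sulfate synthesis, had 3 (median 0.47), and Eny2, a subunit gene of the SAGA and TREX-2 complexes, had 2 (median 0.35). The IS in the cohesin gene Rad21, at -0.21, was 1 of the 3 ISs of the segment that were not above 0. Trps1, Trhr and Tnfrsf11b had no IS in this table, and Taf2, Dscc1 and Deptor lie past the second edge.

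The ISs at promoters of the proximal segment were 7, all above 0, with a median of 0.34 and 1 higher, while the 92 promoter ISs in the rest of the chromosome had a median of -0.18. The promoter of Zfpm2 had the densest of them, whose window is printed above. It had 150 reads in WT and 186 in Rif1KO, a log2 fold change of 0.16 ± 0.16. Med30, a Mediator subunit gene, had 75 and 105 reads (0.33 ± 0.22), Samd12 103 and 145 (0.34 ± 0.19), Nov, a secreted matrix protein gene, 91 and 129 (0.35 ± 0.20), and Sybu, a kinesin adaptor gene, 114 and 170 (0.42 ± 0.17). All 5 were above 0 and none reached 1.5-fold.

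Among ISs of at least median density, the highest values of the proximal segment were in gene-poor DNA on either side of Csmd3. The IS at chr15:49120794-49121749, whose window is printed above, had 73 reads in WT and 170 in Rif1KO (log2 fold change 1.07 ± 0.20). The IS at chr15:47399898-47400706 had 89 and 201 reads (1.02 ± 0.18). The lowest was in an intron of Enpp2 (chr15:54746466-54747024), with 95 and 85 reads (-0.31 ± 0.22), followed by an intergenic IS near Csmd3 with 75 and 84 reads (0.01 ± 0.23). The 2 densest ISs lay in an intron of Pkhd1l1 (238 and 343 reads, 0.37 ± 0.12) and in the intergenic Gm10020 window printed above (214 and 306 reads, 0.36 ± 0.13).

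The distal segment is short and dense in genes, 151 protein-coding genes in 4.995 Mb, or 30.2 per Mb. Of its ISs 46.5% were intergenic, 25.7% intronic, 10.2% exonic and 17.7% at a promoter. In windows of 0.5 Mb counted from the edge, medians were -0.18 in the first window and 0.28 to 0.49 from 0.5 to 3 Mb. They were 0.66 and 0.67 from 3 to 4 Mb, where 27 of 47 ISs were higher, and 0.55 and 0.42 in the last Mb.

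The type II keratin cluster, which lies between 2.5 and 3.5 Mb from the edge (chr15:101177875-101862457), is a row of genes for the basic keratins of epithelia that also holds the type I gene Krt18. Its 25 ISs were all above 0, from 0.28 to 1.02, with a median of 0.65 (0.47 to 0.75) and 13 higher. The IS in an intron of Krt8, whose window is printed above, had 125 reads in WT and 281 in Rif1KO (chr15:101832220-101833250, log2 fold change 1.02 ± 0.16). An intergenic IS on the other side of Krt8, at chr15:101844391-101845138, had 86 and 192 reads (1.01 ± 0.19). The promoter of Krt1, a gene of the upper epidermis, had 57 and 120 reads (0.92 ± 0.23), the only promoter IS among 24 keratin genes in this table. Within gene bodies, single ISs of Krt79 (0.85), Krt77 (0.75) and Krt82 (0.72) were higher, and those of Krt80 (0.54), Krt84 (0.46) and Krt71 (0.46) were above 0 without passing 1.5-fold.

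The Hoxc cluster, the genes for patterning of the body axis at chr15:102751534-102867274, was lower and more mixed. Its 12 ISs had a median of 0.21 (0.03 to 0.58), from -0.39 to 0.99, and 2 were higher. Of the 7 promoter ISs of Hoxc genes 5 were above 0 and none was higher, with a median of 0.04. The Hoxc8 promoter had 54 reads in WT and 90 in Rif1KO (0.58 ± 0.25), that of Hoxc10, the densest, 210 and 238 (0.03 ± 0.14), and that of Hoxc9 117 and 99 (-0.39 ± 0.20). The ISs of this cluster varied 1.61 times as much as counting error gives, those of the keratin cluster 0.996 times.

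Of 9 transcription and chromatin genes listed for the distal segment 6 had a promoter IS. Their 7 ISs were all above 0, with a median of 0.52 and 3 higher, where 9 of all 40 promoter ISs of the segment were higher and 32 above 0. The promoter of Atf7, a bZIP factor gene, had 52 reads in WT and 115 in Rif1KO (0.99 ± 0.24). Those of the zinc finger factor genes Sp7 and Sp1 had 48 and 91 reads (0.77 ± 0.26) and 74 and 130 reads (0.66 ± 0.21). The 2 promoter ISs of Rarg, a retinoic acid receptor gene, had 203 and 323 reads (0.52 ± 0.13) and 65 and 100 reads (0.47 ± 0.23). Atf1 (65 and 83 reads, 0.20 ± 0.24) and the SWI/SNF subunit gene Smarcd1 (117 and 145 reads, 0.16 ± 0.18) were closer to 0.

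The 40 promoter ISs of the distal segment had a median of 0.29, with 32 above 0 and 9 higher. Of the remaining genes on the list, the RNA-binding protein gene Pcbp2 (205 and 281 reads, 0.30 ± 0.13), the kinase gene Map3k12 (177 and 244 reads, 0.31 ± 0.14) and the integrin gene Itga5 (92 and 120 reads, 0.23 ± 0.20) had 1 promoter IS each. The IS of Cbx5, the gene of heterochromatin protein HP1 alpha, was in its body and at 0.69, and those of the integrin gene Itgb7 and of Bin2 were at 0.72 and -0.13. In this table no promoter IS was called at the tubulin genes, Espl1 (separase), Hnrnpa1, Tarbp2, Nfe2, Nckap1l, Tmbim6 or Aaas. The densest IS of the segment was the repeat near Scn8a, with 671 and 791 reads (0.08 ± 0.08). It lay, like the dense Mll2 exon, well under the median of the segment.

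In each class of GC content, density and gene context compared, the segments lay above the rest of chromosome 15. Their choice by these same values makes this likely in any class. In 3 equal classes of GC content over the table, medians from lowest to highest GC were 0.50, 0.39 and 0.44 in the proximal segment and 0.59, 0.47 and 0.37 in the distal segment. The rest of the chromosome had 0.15, 0.05 and -0.08. The ISs of the proximal segment had a median GC content of 40.7%, those of the distal segment 52.6% and those of the rest 45.7%. Spearman's rho of fold change with GC content, over ISs that share libraries and neighbours, was -0.20 (n = 574), -0.35 (n = 226) and -0.41 (n = 1867). By density, from the lowest to the highest class, medians were 0.50, 0.45 and 0.48 in the proximal and 0.45, 0.48 and 0.42 in the distal segment, against 0.09, 0.03 and 0.06. Intergenic ISs had medians of 0.50 and 0.49 against 0.08, intronic ISs 0.44 and 0.42 against 0.03, and exonic ISs 0.43 and 0.37 against -0.01. Some classes were small: 41 proximal ISs were in the highest GC class, 22 distal ISs in the lowest, and 9 proximal ISs were exonic.

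**Figure D3:**
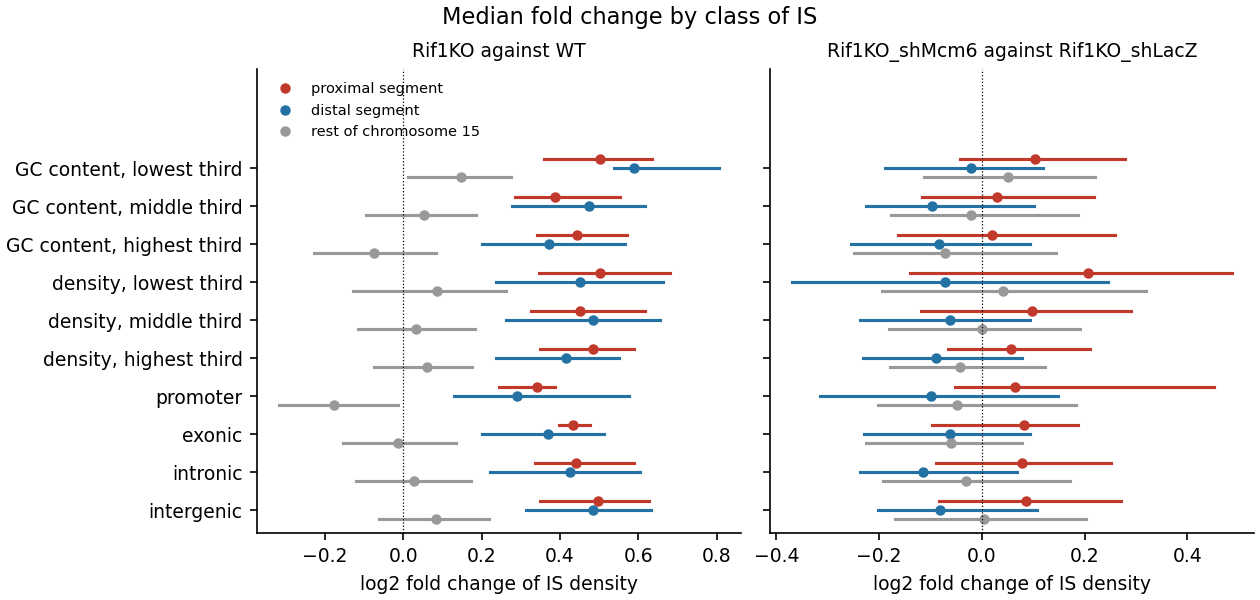
Median log2 fold change (points; x axis) with the quartiles (bars) by class of IS, for Rif1KO against WT (left) and Rif1KO_shMcm6 against Rif1KO_shLacZ (right). On the left both segments, chosen by these fold changes, lie above the rest in every class drawn. On the right the proximal segment lies above and the distal segment below the rest in every class drawn.

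The G-quadruplex motif was in 87 of 574 windows of 200 bases in the proximal segment (15.2%), in 31.4% of those in the distal segment and in 23.9% of those in the rest, against 25.9% of all windows of the table. In Rif1KO against WT, ISs without the motif had the higher median in each region. The medians with and without it were 0.37 and 0.50 in the proximal segment, 0.31 and 0.49 in the distal segment, and -0.03 and 0.08 in the rest. Windows without it also had lower GC content, a median of 36.5% against 46.5% in the proximal segment and 51% against 57% in the distal segment. In the second table the motif was in 9.75%, 16.8% and 11.6% of windows, against 11.1% of all. There the order was the opposite, with medians with and without it of 0.11 and 0.08 in the proximal segment, -0.03 and -0.09 in the distal segment, and 0.07 and -0.02 in the rest.

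The segments also differed between conditions in how many ISs were called. The WT list had 205 ISs in the proximal and 128 in the distal segment, or 13.4 and 25.6 per Mb, against 16.2 per Mb in the rest of the chromosome. The Rif1KO list had 564 and 218, or 36.8 and 43.6 per Mb, against 20.6. Per Mb the proximal segment thus had 0.825 times the ISs of the rest in WT and 1.79 times in Rif1KO, and the distal segment 1.58 and 2.12 times. Of the 574 proximal ISs of the first table, 370 (64.5%) had been called in Rif1KO only and 10 in WT only. In the distal segment these were 98 (43.4%) and 8 of 226, and in the rest 572 (30.6%) and 218 of 1867. Outside the chromosome they were 33.8% and 14.6% of ISs.

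Of the Rif1KO ISs in the proximal segment 34.4% (95% Wilson interval 30.6 to 38.4%) overlapped a WT IS by at least 1 bp, in the distal segment 120 of 218 did (48.4 to 61.5%) and in the rest 65.4% (63.0 to 67.6%). Outside the chromosome 60.5% did. Of the WT ISs 95.1%, 93.8% and 83.3% overlapped a Rif1KO IS, and 78.1% outside the chromosome. ISs called in both conditions had median fold changes of 0.40 in the proximal and 0.33 in the distal segment, against 0.04 in the rest. Those called in Rif1KO only had 0.53 and 0.57 against 0.18. A call in a single condition favours that condition by itself. Outside the chromosome, ISs called in Rif1KO only were at 0.17 and those called in WT only at -0.26. The 10 proximal ISs called in WT only were at a median of 0.34, while the 8 distal and 218 other ones were at -0.21 and -0.18. In the keratin cluster the lists held 10 ISs in WT and 25 in Rif1KO, and in the body of Csmd3 14 and 49.

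The lists of both hairpin lines, drawn from deeper data, had an excess in both segments too. Rif1KO_shLacZ cells had 1028 and 406 ISs there, or 67.1 and 81.3 per Mb against 52.7 in the rest (1.27 and 1.54 times). Rif1KO_shMcm6 cells had 1191 and 444, or 77.8 and 88.9 per Mb against 60.3 (1.29 and 1.47 times). For the proximal segment the ratio to the rest lay above 1 in the 3 Rif1-null lists and below 1 in WT, although against the whole genome WT was above 1 too (1.37 times), while for the distal segment the ratios of the hairpin lines were close to that of WT. Of the Rif1KO ISs 84.4% in the proximal and 89.4% in the distal segment overlapped an IS of Rif1KO_shLacZ. In the rest 84.1% did, and outside the chromosome 79.4%.

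Between the 2 hairpin lines the segments differed little, and in opposite directions. Here fold change is Rif1KO_shMcm6 over Rif1KO_shLacZ, in libraries that had no part in choosing the segments. The median log2 fold change was 0.08 (0.06 to 0.10) over 1292 proximal ISs and -0.08 (-0.12 to -0.05) over 488 distal ISs, against -0.01 in the rest and outside the chromosome. Relative to the rest these are 1.07-fold and 0.953-fold. In 2 Mb windows with at least 10 ISs, the 39 in the rest of chromosome 15 had medians from -0.15 to 0.16. The 7 proximal windows ran from -0.02 to 0.18, and 593 (47.7%) of 1242 on other chromosomes were at or above the lowest of them. Medians of the size found in the segments were thus not particular to them. In the proximal segment 84 ISs (6.50%) were higher and 8 (0.619%) lower, against 4.8% and 1.51% of all 129937 ISs of the table. The higher share was 1.96% at ISs called in both conditions and 0.609% at ISs found in both tables, and after subtracting the GC trend the medians over the rest were 0.0618 in the proximal and -0.0339 in the distal segment, from 0.09 and -0.07. In the distal segment 10 (2.05%) were higher and 13 (2.66%) lower, and in the rest 250 (4.67%) and 81 (1.51%). The spread of ISs was 1.94 and 1.97 times the counting error in the segments and 1.91 times in the rest. Whether these differences exceed the error between replicates could not be tested.

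In this contrast the proximal segment was not uniform. Its first, middle and last parts of equal length had medians of 0.04, 0.16 (0.13 to 0.19) and 0.02, and the middle part holds 4 protein-coding genes against 17 in each of the others. The 109 ISs in the body of Csmd3 had a median of 0.14 and 7 were higher. The highest value among denser ISs was in a Csmd3 intron at chr15:47688248-47689251, with 121 reads in Rif1KO_shLacZ and 365 in Rif1KO_shMcm6 (log2 fold change 1.43 ± 0.15). The promoter of Oxr1 had an IS with 242 and 436 reads (0.69 ± 0.12), while an IS in an intron of the same gene had 189 and 143 (-0.57 ± 0.16). The promoter of Zfpm2 had 437 and 499 reads (0.03 ± 0.09).

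In the distal segment medians were -0.11 at intronic, -0.10 at promoter, -0.08 at intergenic and -0.06 at exonic ISs, where the rest had -0.03, -0.05, 0.00370 and -0.06. The promoter of Pou6f1, a POU domain factor gene, had 416 reads in Rif1KO_shLacZ and 260 in Rif1KO_shMcm6 (log2 fold change -0.84 ± 0.11). The promoter of Atf1 had 121 and 61 reads (-1.15 ± 0.23) and was the only lower one among 11 promoter ISs of the transcription and chromatin list, whose median was -0.01. Over all promoters of the segment, 35 of 91 ISs were above 0, 2 were higher and 6 lower, with a median of -0.10 against -0.05 at the promoters of the rest. The densest promoter IS, that of Rarg, had 810 and 709 reads (-0.36 ± 0.07). Higher values were found between keratin genes, near Krt1 (175 and 357 reads, 0.86 ± 0.13) and near Krt73 (158 and 297 reads, 0.75 ± 0.14), while the median of the 69 ISs of that cluster was -0.09. The 59 ISs before the step and the 429 after it both had medians of -0.08.

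Set side by side, the fold changes of both contrasts had little relation within the segments. Over ISs found in both tables, which share no library between contrasts, Spearman's rho was 0.08 in the proximal segment (n = 493), -0.02 in the distal segment (n = 198) and 0.10 in the rest (n = 1601), given as a description because the ISs of a segment are neighbours.

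The 4 conditions were then compared at those shared ISs by the share of reads that fell in a segment, out of the reads of that segment and the rest of chromosome 15, which does not depend on how a table was scaled. For the proximal segment this was 19.3% in WT (Wilson interval 19.1 to 19.4%), 24.3% in Rif1KO (24.1 to 24.5%), 23.6% in Rif1KO_shLacZ (23.5 to 23.7%) and 24.9% in Rif1KO_shMcm6 (24.79 to 25.01%). For the distal segment it was 11.5% (11.4 to 11.7%), 14.1% (13.9 to 14.2%), 14.0% (13.9 to 14.1%) and 13.4% (13.3 to 13.5%). WT had the lowest share for both segments, and the 3 Rif1-null conditions lay close together above it. The hairpin lines were no part of the choice of the segments, but the WT libraries they are set against were, so the low share in WT is partly fixed by that choice, and without values per replicate no test was possible. Shared ISs were wider in the second table by a ratio of summed widths of 1.57 in the proximal segment, 1.62 in the distal segment and 1.59 in the rest, which differ by -0.02 and 0.03 on the log2 scale from the rest.

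**Figure D4:**
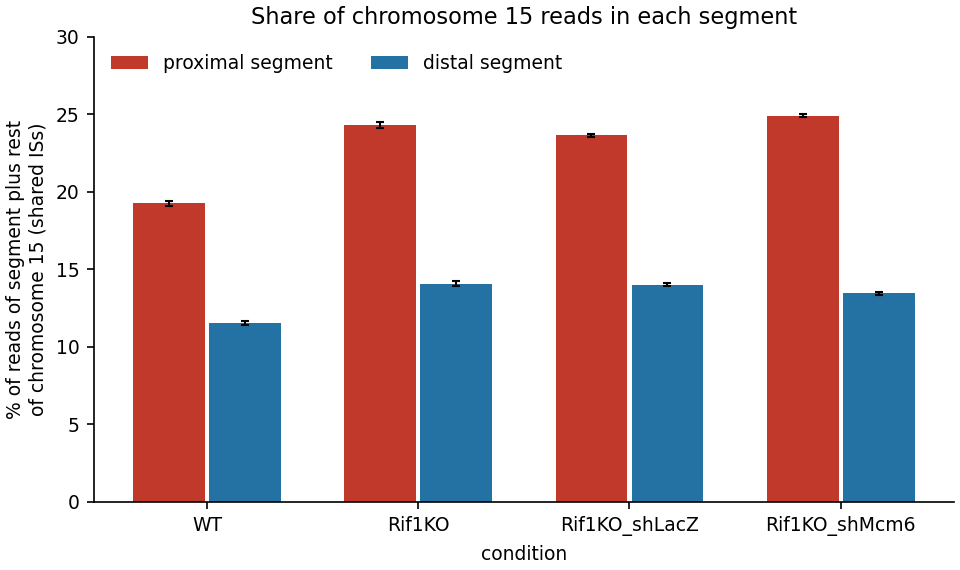
Percent of the reads of a segment plus the rest of chromosome 15 that fell in the segment (y axis), at ISs shared by both tables, in the 4 conditions (x axis); error bars are 95% Wilson intervals of the read counts. The proximal segment rises from 19.3% in WT to between 23.6 and 24.9% in the Rif1-null conditions, the distal segment from 11.5% to between 13.4 and 14.1%.

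Written as a log2 change of the ratio of segment to rest against WT, the proximal segment was at 0.43 (counting interval 0.41 to 0.45) in Rif1KO, 0.38 (0.36 to 0.39) in Rif1KO_shLacZ and 0.48 (0.46 to 0.49) in Rif1KO_shMcm6. The distal segment was at 0.33 (0.30 to 0.36), 0.32 (0.30 to 0.35) and 0.25 (0.23 to 0.28). Of the 493 shared proximal ISs 400 in Rif1KO_shLacZ and 432 in Rif1KO_shMcm6 lay above the median of the rest in their change against WT, and of the 198 distal ISs 155 and 151. Against Rif1KO, Rif1KO_shLacZ was at -0.05 (-0.07 to -0.04) in the proximal segment and at -0.01 (-0.03 to 0.02) in the distal segment. Rif1KO_shMcm6 against Rif1KO_shLacZ was at 0.10 (0.09 to 0.11) and -0.07 (-0.09 to -0.05).

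The distal level of the hairpin lines depended on which ISs were summed. Shared ISs had to be called in WT or Rif1KO to be in the first table, and most proximal ones were called in Rif1KO only. At the 174 proximal and 110 distal shared ISs called in WT, a set chosen after the values were seen, Rif1KO_shLacZ was at 0.34 and 0.21 and Rif1KO_shMcm6 at 0.43 and 0.13. With all ISs of each table, which sums different ISs in the 2 tables, the proximal values were 0.16 and 0.25, and the distal ones turned to -0.05 and -0.13. Rif1KO_shLacZ against Rif1KO was then at -0.27 in the proximal and -0.38 in the distal segment.

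All 3 Rif1-null conditions lay above WT in every 2 Mb window wholly inside a segment, but not at the same height. In the 7 windows of 2 Mb that lie wholly in the proximal segment the change against WT was 0.39 to 0.45 in Rif1KO, 0.33 to 0.45 in Rif1KO_shLacZ and 0.41 to 0.56 in Rif1KO_shMcm6. In the window from 46 Mb the values were 0.45, 0.36 and 0.55, the last with a counting interval of 0.51 to 0.60 that lay above those of the others. In the 2 such windows of the distal segment it was 0.38 and 0.46, 0.35 and 0.45, and 0.26 and 0.41. Such levels were not particular to the segments in the hairpin lines: 4 windows of the rest, from 28, 64, 68 and 90 Mb, had 0.30, 0.38, 0.29 and 0.37 in Rif1KO_shLacZ and 0.39, 0.40, 0.38 and 0.49 in Rif1KO_shMcm6. In Rif1KO these windows were at 0.00375, 0.32, 0.13 and 0.11, and they held 20, 42, 9 and 9 shared ISs. The part of the distal segment before the step was at -0.27 in Rif1KO, -0.10 in Rif1KO_shLacZ and -0.18 in Rif1KO_shMcm6, and the part after it at 0.40, 0.38 and 0.31. The step was placed on Rif1KO over WT, and all 3 conditions share the WT reads, so their common sign on either side is no independent support for it. The keratin cluster was at 0.59, 0.68 and 0.56, and the body of Csmd3 at 0.43, 0.30 and 0.51.

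**Figure D5:**
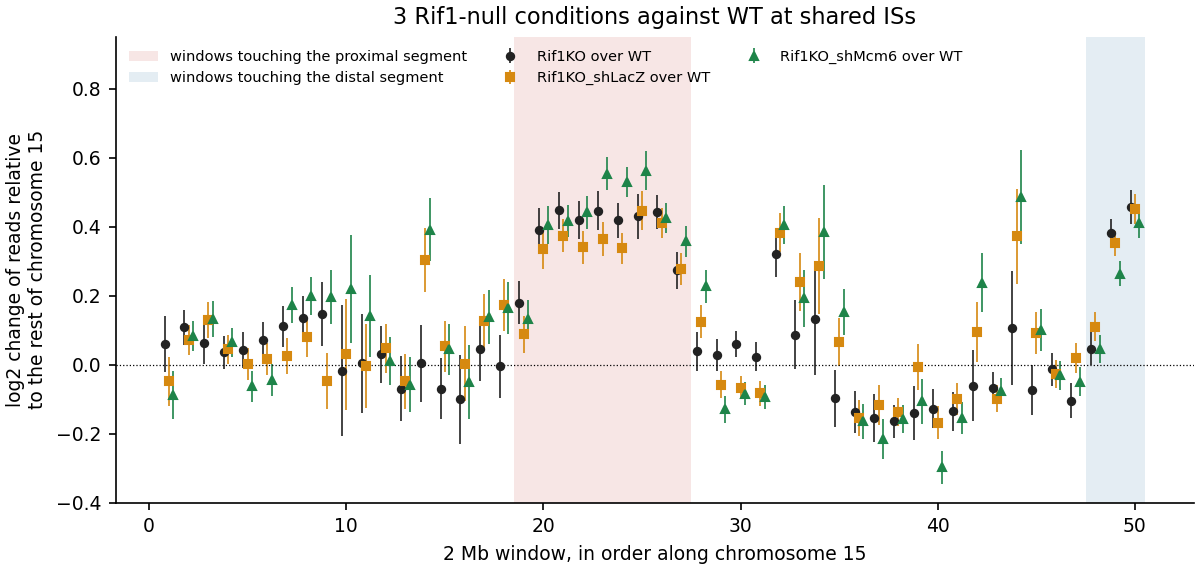
Log2 change against WT of the reads of each 2 Mb window relative to the rest of chromosome 15 (y axis), at shared ISs, by order of the window along the chromosome (x axis), for the 3 Rif1-null conditions; bars are 95% counting intervals and shading marks windows that touch a segment. All 3 conditions lie between 0.33 and 0.56 in the 7 windows wholly inside the proximal segment, and 4 windows of the rest reach 0.29 to 0.49 in both hairpin lines.

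Single ISs did not all follow their segment. Levels here are reads of an IS per 100000 reads of the shared ISs in the rest of chromosome 15, in WT, Rif1KO, Rif1KO_shLacZ and Rif1KO_shMcm6 in that order, and the IS of the second table can be wider or narrower than that of the first, so widths in bp are given for both. The Krt8 intronic IS (1031 and 1262 bp) was at 83.4, 163, 152 and 137, with the 3 Rif1-null conditions above WT. The intergenic IS beyond Krt8 (748 and 1521 bp) was at 57.4, 111, 176 and 159. The Csmd3 intergenic IS printed above (956 and 697 bp), chosen for its high value in Rif1KO over WT, was at 48.7, 98.7, 60.0 and 66.8. The Zfpm2 promoter (644 and 1376 bp) was at 100.05, 108, 104 and 111, with counting errors of 4.96 to 8.17.

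At other ISs the order of the conditions varied. The repeat near Scn8a (1309 and 1441 bp) was at 448, 459, 223 and 265, so that both hairpin lines had lower levels than WT and Rif1KO. The Enpp2 intronic IS, chosen for its low value in the first contrast (559 and 1275 bp), was at 63.4, 49.4, 103 and 118. The Atf1 promoter (413 and 417 bp) was at 43.4, 48.2, 28.8 and 13.5, lowest in Rif1KO_shMcm6. The second promoter IS of Rarg (433 and 1369 bp) was at 43.4, 58.1, 126 and 131, and the Hoxc8 promoter (379 and 694 bp) at 36.02, 52.3, 91.6 and 79.0, so that the levels of the hairpin lines there are summed over much wider ISs. The Hoxc10 promoter (756 and 935 bp) was at 140.1, 138, 117 and 99.8. WT and Rif1KO came from one table and both hairpin lines from the other, with separate peak calls and depths, and the part of that in these levels was not tested.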

How the data were processed

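SNS-seq libraries were trimmed by the authors with Trim Galore 0.6.4 and cutadapt 2.6 and aligned to mm9 with Bowtie 1.2.3, keeping reads with a single best place in the genome, so repeats are under-represented (versions per the submitters' processing notes). Peaks were called with MACS in each replicate without an input, replicates were intersected and clusters filtered with bedtools and ClusterScan, and the peaks of each pair of conditions were merged. The authors deposited log2 RPM values, whose linear form sums to 1000000 over the ISs of a table, as 1 value per condition with both replicates pooled, in 4 columns of values. Further deposited columns give how many peaks were merged and the authors' fold-change class, and were not used; 0 columns of other samples were present.

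The 8 libraries were grouped by genotype label. Linear values were whole multiples of the value of 1 read for 100% of values (tolerance 0.001 of a read), which gave reads per IS. They served for counting errors and were not tested with a count model, because they carry no replicates. Sequencing reads include PCR copies, and no interval covers the error between replicates. Intervals were Wilson for shares, normal on the log scale for ratios of reads, and binomial order statistics for medians over ISs. Those for medians and for shares of ISs cover the spread of ISs and treat neighbouring ISs as independent, and those for reads cover counting error. ISs of both tables were matched by an overlap of at least 1 bp. Genes were those of GENCODE on NCBIM37 (22380 protein-coding), with promoters within 1 kb of a protein-coding start. Motifs were sought in the 200 bases round each IS centre, a shorter window than planned.

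The segments, gene lists and rules were chosen with earlier results of these data known. ISs named were, per segment and table, the 2 densest and, at or above the median density of the table, the extreme 2 in fold change at either end, the densest promoter and intergenic IS, and the 3 on each side of an edge; genes named came from fixed lists or lie at these ISs, except those at the step of the distal segment (Mll2 apart, a listed gene), which were chosen after their values were seen. Pvt1, on the list, is not reported. One IS of the distal segment that the rule would name is not reported here. Alternatives changed the threshold, reference, IS set, edges, pseudocount, density filter and GC trend. Scripts (Python 3.11.15, pandas 2.3.3, numpy 2.4.6, scipy 1.17.1, statsmodels 0.14.6, matplotlib 3.10.9) were tested on simulated data.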

Additional observations from a re-analysis of the deposited data

How the results depend on the processing

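No paired analysis was possible because both replicates of a condition were pooled before deposit; for the same reason leaving out each replicate and the replicate block were not run, and no value here has a replicate error. Of 146 alternatives over 26 values, 79 moved by less than the counting interval, 65 moved further and 2 reversed. Where nothing else is said, the cause was not tested. The distal segment from the step, the rest without the third stretch and shared ISs called in WT were chosen after the values were seen.

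For Rif1KO against WT, the median over the rest (0.43 proximal, 0.38 distal) was 0.48 and 0.43 against ISs outside chromosome 15, 0.36 and 0.29 at ISs called in both conditions, and 0.35 and 0.46 after subtracting the GC trend. The distal value was 0.33 as a ratio of summed reads and 0.43 with edges moved 1 Mb inwards, which drops the low ISs before the step. The share of higher ISs (30.1% and 27.4%) was 1.74% and 2.21% at 2-fold, which is stricter by construction, and 14.4% and 15% at ISs called in both conditions. The proximal share was 25.8% with log2(RPM + 1) and 16.6% after the GC trend.

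For Rif1KO_shMcm6 against Rif1KO_shLacZ, the proximal median over the rest (0.09) was 0.11 at ISs found in both tables and 0.0618 after the GC trend, and the distal one (-0.07) was -0.0339 after it. The proximal share of higher ISs (6.50%) was 0.929% at 2-fold, 4.45% without the ISs of lowest density, 4.41% with log2(RPM + 1), 1.96% at ISs called in both conditions and 0.609% at ISs found in both tables. The distal share (2.05%) was 0.205% at 2-fold, 0.690% without those of lowest density, 0.560% at ISs called in both conditions and 0% at ISs found in both tables.

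For the level against WT at shared ISs, Rif1KO_shLacZ (0.38 proximal, 0.32 distal) and Rif1KO_shMcm6 (0.48, 0.25) changed as follows. With all ISs of each table they were 0.16 and 0.25 proximal and reversed to -0.0540 and -0.13 distal; this setting sums different ISs in the 2 tables. Against ISs outside chromosome 15 they were 0.41 and 0.52 proximal, 0.35 and 0.30 distal. As medians per IS they were 0.35 and 0.46 proximal, 0.45 and 0.35 distal. Without the 5% of ISs with the most reads they were 0.35 and 0.45 proximal, 0.40 and 0.32 distal. At shared ISs called in WT they were 0.34 and 0.43 proximal, 0.21 and 0.13 distal. Counting the distal segment from the step gave 0.38 and 0.31.

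Proximal Rif1KO_shMcm6 over Rif1KO_shLacZ (0.10) was 0.11 against ISs outside chromosome 15 and 0.0837 at shared ISs called in WT. Rif1KO_shLacZ over Rif1KO (-0.05 proximal, -0.01 distal) was -0.27 and -0.38 with all ISs of each table, -0.0756 and -0.0279 against ISs outside chromosome 15, -0.0792 and 0.0358 as a median per IS, and -0.0782 and 0.0206 without the 5% with the most reads. The distal value was -0.0798 at shared ISs called in WT.

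ISs per Mb over the whole genome in place of the rest were 1.37, 2.89, 1.76 and 1.77 times in the proximal segment for WT, Rif1KO, Rif1KO_shLacZ and Rif1KO_shMcm6, and 2.62, 3.43, 2.13 and 2.03 times in the distal segment. Relative to the genome, WT was above 1 in the proximal segment too.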

Other observations

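A shorter stretch of chromosome 15 between the segments, chosen after the fold changes had been seen, had values like theirs. Its 50 ISs lie from chr15:63751422 to chr15:65732059, past Myc, and it holds 5 protein-coding genes. The median log2 fold change of Rif1KO over WT was 0.36 (0.30 to 0.43), 49 ISs were above 0 and 8 higher by over 1.5-fold. The 104 ISs of the 2 Mb before it had a median of 0.04 and the 30 ISs of the 2 Mb after it 0.05. At shared ISs, its reads relative to the rest of chromosome 15 were at 0.34 in Rif1KO, 0.38 in Rif1KO_shLacZ and 0.40 in Rif1KO_shMcm6 against WT, while the 2 Mb before it were at -0.02, -0.18 and -0.21 and the 2 Mb after it at 0.06, 0.20 and 0.12. The lists held 29 of its ISs in WT, 50 in Rif1KO, 128 in Rif1KO_shLacZ and 136 in Rif1KO_shMcm6, or 14.5, 25, 64 and 68 per Mb against 16.2, 20.6, 52.7 and 60.3 in the whole rest of the chromosome. In the contrast of Rif1KO_shMcm6 with Rif1KO_shLacZ the 152 ISs of the stretch had a median of -0.03.

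Between the segments lies also Myc, the gene of a growth-promoting transcription factor, with 2 ISs within 1 kb of an annotated start. The first promoter IS (chr15:61816040-61817936) had 853 reads in WT and 861 in Rif1KO, a log2 fold change of -0.14 ± 0.07, and the second had 183 and 208 reads (0.03 ± 0.15). Relative to the rest of chromosome 15, the first was at 569 reads per 100000 in WT, 499.9 in Rif1KO, 149 in Rif1KO_shLacZ and 123 in Rif1KO_shMcm6, and the second at 122, 121, 106 and 75.4. The IS of the second table there is narrower (chr15:61816172-61816938) than that of the first, and how much of the lower level in the hairpin lines follows from this was not tested.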
